A study of Mus musculus with 2 samples.

Results

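In sorted sham microglia, 113 of the 361 mouse genes that span at least 400 kb outside chromosomes X, Y and MT were counted. These long genes were chosen by 2 values of the deposited files, the span from the start to the end of the gene, introns included, and a count of at least 10 in both libraries. They were 31.3% of the genes of that span, where 26.3% of all genes outside those chromosomes passed the same count minimum (13028 of 49580, with 53801 genes listed in all). Among protein-coding genes the order was the other way, with 111 of 337 long genes counted (32.9%) and 11136 of 20823 genes of any span (53.5%). The members lay on all 19 autosomes, 64 on the plus and 49 on the minus strand, with a median span of 539 kb, and 94 had a mean of at least 100 counts. Because the count chose the members, these shares describe the rule and no test was made of them. Markers of other cell types were counted as well, as given below, and a count does not show which cells it came from.

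Both libraries held microglia of hemizygous Cx3cr1(CreER/wt) mice on the C57BL/6 background, male and 8 to 10 weeks old per the labels. The methods of the study give an older age range and both sexes for the operated mice. These mice carry a tamoxifen-inducible Cre recombinase in place of one Cx3cr1 allele, driven by the Cx3cr1 promoter. Both mice had received tamoxifen at 75 mg/kg on each of 4 days, with surgery 14 days after the first injection, and had sham surgery, which the title gives while the treatment label reads none. Cells of the operated hemisphere were taken 3 days later and sorted as CD11c–Ly6G–CD11b+CD45low, so the group is 1 condition with 2 libraries (n = 2), and the ratio between them compares libraries, not conditions. Libraries of mice with middle cerebral artery occlusion were not analysed here.

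A long gene is mostly intron. RNA polymerase copies the whole span, splicing removes the introns, and the mature mRNA can be as short as that of a compact gene. Long genes are best known from neurons, where many encode adhesion molecules, ion channels and synaptic proteins, and several lie at common fragile sites, where DNA breaks under replication stress. The RNA here was copied from its polyadenylated 3′ end into full-length cDNA and cut into fragments by a transposase, so that the cDNA follows the mature transcript and not the span.

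Replicate 1 held 23381026 counts on genes and replicate 2 held 41142609, and a level in CPM is the count per 1000000 of these. For a gene with no count the upper limit was 3 counts, which is 0.128 CPM in replicate 1 and 0.0729 CPM in replicate 2. The gated cell type was present, since all 10 microglia markers were counted and together gave 51226 CPM in replicate 1 and 47240 CPM in replicate 2. The gate leaves out Ly6G-positive cells, and yet the 10 neutrophil markers gave 4461 CPM in replicate 1 and 60915 CPM in replicate 2, and 10 of 10 were higher in replicate 2. Basophil and mast cell markers gave 0.0855 and 165 CPM, and B cell markers 570 and 778 CPM. Neuronal markers were near 0, with 4.23 and 6.44 CPM over 10 genes, 3 of 10 counted and Slc17a6 at 0 in both libraries. Astrocyte markers gave 226 and 177 CPM, oligodendrocyte lineage markers 99.9 and 109 CPM with Pdgfra at 0, and endothelial and pericyte markers 19.0 and 15.8 CPM. The part of these cells in the values below was not tested, and in bulk RNA fewer cells of a type and less RNA per cell cannot be told apart.

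The base composition of the mature transcript differed among the long genes. Among the 15 long genes of highest mean level, Hivep3 and Zfhx3 had the highest GC content and March1 and Celf2 the lowest. For each, 90 bases of coding sequence from 1 exon of the GENCODE M21 annotation (GRCm38) are shown on the strand of the gene, 5′ to 3′, chosen as the window whose GC content was nearest to that of the transcript, with G and C in capitals.
Hivep3: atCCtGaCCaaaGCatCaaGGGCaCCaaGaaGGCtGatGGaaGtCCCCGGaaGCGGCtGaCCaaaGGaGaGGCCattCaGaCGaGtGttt
Zfhx3: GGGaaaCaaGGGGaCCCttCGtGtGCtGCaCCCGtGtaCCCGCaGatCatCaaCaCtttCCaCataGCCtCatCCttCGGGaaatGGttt
March1: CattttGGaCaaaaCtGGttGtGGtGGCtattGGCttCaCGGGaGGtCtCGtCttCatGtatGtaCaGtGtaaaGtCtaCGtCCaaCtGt
Celf2: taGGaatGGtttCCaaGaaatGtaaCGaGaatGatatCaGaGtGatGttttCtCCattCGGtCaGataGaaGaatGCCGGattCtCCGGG
The Hivep3 window lies at chr4:120094493-120094582 on the plus strand, in exon 4 of 9, with a GC content of 54.4% where the transcript has 54.6%. The Zfhx3 window lies at chr8:108792782-108792871 on the plus strand, in exon 8 of 16, and has 53.3% where the transcript has 53.0%. The March1 window lies at chr8:66468247-66468336 on the plus strand, in exon 8 of 8, and has 45.6% where the transcript has 40.4%. The Celf2 window lies at chr2:6615709-6615798 on the minus strand, in exon 5 of 12, and has 42.2% where the transcript has 42.1%. The CPM of Hivep3 and Zfhx3 was lower in replicate 2 (log2 ratios of -0.89 and -2.03), and that of March1 and Celf2 was higher (0.61 and 0.08).

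The long genes took 126558 counts in replicate 1, which is 0.541% of the library (95% Clopper-Pearson interval 0.538 to 0.544), and 135560 counts in replicate 2, which is 0.329% (0.328 to 0.331). The mean share was 0.435% ± 0.150 (SD, n = 2), and the share in replicate 1 was 1.64 times that in replicate 2. Such intervals hold for counting error alone, since reads amplified by PCR do not each stand for a molecule. A few genes carried most of the sum, since the 5 members of highest level took 30.1% of all member counts in replicate 1 and 32.2% in replicate 2, and the 15 highest took 56.8% and 51.8%. In CPM, which takes no account of length, the median member lay at 16.0 CPM in replicate 1 and 10.5 CPM in replicate 2, below the median of all counted genes in both libraries (20.1 and 13.7 CPM). Per kb of the longest transcript, the median of the mean levels was 2.28 CPM per kb for the long genes and 5.12 for all counted genes.

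Elmo1 had the highest level of the long genes. It encodes the partner through which DOCK proteins activate the GTPase Rac during engulfment, and it lies at chr13:20090596-20608353 (GRCm38). It had 10569 counts (452 CPM) in replicate 1 and 12627 counts (307 CPM) in replicate 2, a mean of 379 ± 103 CPM (SD, n = 2). Per kb of transcript its level was 69.4 ± 18.8 CPM per kb, and that of Slc9a9, an endosomal sodium/proton exchanger (chr9:94669909-95230445), was 68.6 ± 0.555, so the order of these genes is within the spread of Elmo1. Frmd4a, a FERM-domain scaffold of cell polarity (chr2:4017717-4614043), followed with 39.6 ± 22.0 CPM per kb. Snd1, a nuclease and transcriptional coactivator, had 33.4 ± 24.7, Celf2, a regulator of splicing and mRNA stability, had 30.8 ± 1.27, and Dock2, the Rac exchange factor of blood cells, had 26.5 ± 17.3 CPM per kb. From Frmd4a to Dock2 each gene differed from the next by less than its own SD or that of the next. Rasgef1b (23.9 ± 6.22), the zinc transporter gene Slc39a11 (23.8 ± 0.256), March1 (23.4 ± 6.85) and Snx29 (17.8 ± 3.14) completed the 10 highest per kb. March1 encodes a membrane ubiquitin ligase that takes MHC class II off the cell surface.

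The order by CPM depended on the library. Of the 15 highest members in each library by CPM, 8 were shared. Celf2 (chr2:6539694-7509563) had 6198 counts (265 CPM) in replicate 1 and 11563 counts (281 CPM) in replicate 2, and Slc9a9 had 5592 (239 CPM) and 9728 (236 CPM). Both were nearly level between the mice. Zfhx3, a very large zinc finger and homeodomain transcription factor (chr8:107942644-108961630), had 7003 counts (300 CPM) and 3024 counts (73.5 CPM). Nav3, a microtubule-binding navigator protein (chr10:109681259-110456204), had 4740 counts (203 CPM) and 1784 counts (43.4 CPM). Replicate 1 was thus 4.08-fold higher for Zfhx3 and 4.68-fold higher for Nav3. Of the 15 genes of highest mean CPM, 13 were lower in replicate 2, 8 of them by over 2-fold (6 with DESeq2 size factors), and 0 were over 2-fold higher. Of the 13028 counted genes 26.0% were over 2-fold lower and 5.76% over 2-fold higher with CPM. One of the 13, Slc9a9 (log2 ratio -0.02), changed sign with other scalings of the libraries.

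**Figure D1:**
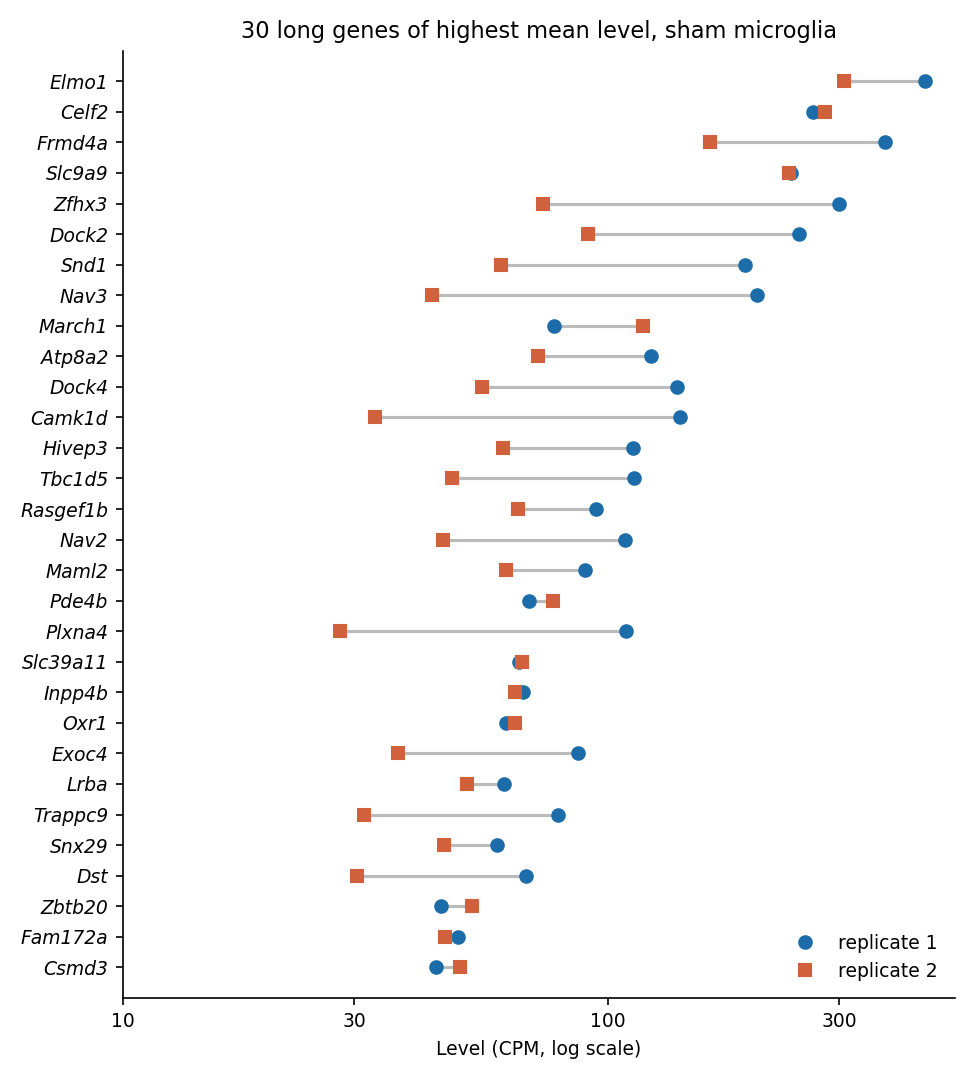
Level of the 30 long genes of highest mean CPM in sham microglia, on a log axis, with a circle for replicate 1, a square for replicate 2 and a line joining the pair. Elmo1 led with 452 and 307 CPM, the symbols of Slc9a9 and Slc39a11 nearly coincide, and those of Zfhx3, Nav3, Camk1d and Plxna4 lie farthest apart, with replicate 1 on the right.

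The engulfment family held 4 long genes, and all 4 were members. Dock2 (chr11:34226815-34783892) had 5800 counts (248 CPM) in replicate 1 and 3751 (91.2 CPM) in replicate 2. Dock4 (chr12:40445952-40846874), an exchange factor for Rac and Rap, had 3243 (139 CPM) and 2263 (55.0 CPM), and Dock1 (chr7:134670654-135173639), the classical ELMO partner, had 647 (27.7 CPM) and 359 (8.73 CPM). All 4 genes were lower in replicate 2, and 3 of them by over 2-fold, the exception being Elmo1 at 1.47-fold. After adjustment for transcript GC content and length 0 of the 4 were past 2-fold in either direction. Of counted genes 12.7% were lower and 9.84% higher after it. Family members under 400 kb were also measured. Of 15 counted genes of the family 9 were over 2-fold lower in replicate 2 and 1, Dock5, was over 2-fold higher (95 and 360 counts), beside 26.0% and 5.76% of all counted genes. Rac1, the GTPase they act on, had 12270 counts (525 CPM) and 1278 counts (31.1 CPM), while Rac2, the Rac of blood cells, had 11234 (480 CPM) and 38438 (934 CPM). Dock8, an exchange factor for Cdc42 that spans 203 kb, had 10430 (446 CPM) and 11816 (287 CPM). Rac2 is also abundant in neutrophils, whose markers were higher in replicate 2, and their part in its value was not tested.

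Other regulators of small GTPases summed to 76.8 CPM in replicate 1 and 62.2 CPM in replicate 2 over 5 members. Arhgap24, a Rac-directed GTPase-activating protein, had 780 and 736 counts, Agap1, which acts on Arf proteins, had 391 and 221, and Psd3, an Arf6 exchange factor, had 80 and 67. Arhgap26 had 353 and 234 counts. These 4 were lower in replicate 2, and 3 of them by over 2-fold (2 with DESeq2 size factors), where 26.0% of counted genes were with CPM. Arhgap15, a Rac-directed GTPase-activating protein of blood cells (chr2:43748824-44395953), went the other way, with 192 counts (8.21 CPM) in replicate 1 and 1303 counts (31.7 CPM) in replicate 2, a 3.86-fold higher level. Outside this list Rasgef1b, an exchange factor for Rap2, had 2210 and 2681 counts (94.5 and 65.2 CPM).

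Gene regulators were the next group. The 11 transcription factors and chromatin regulators of the list, of 19 in it that span 400 kb, gave 598 CPM in replicate 1 and 292 CPM in replicate 2, with Zfhx3 alone at 300 CPM and 73.5 CPM. Maml2, a coactivator of Notch signalling, had 2100 counts (89.8 CPM) and 2538 counts (61.7 CPM), and its relative Maml3 had 1468 (62.8 CPM) and 771 (18.7 CPM). Zbtb20, a zinc finger repressor, had 1059 (45.3 CPM) and 2155 (52.4 CPM), and Foxp1, a forkhead factor of monocyte and B cell development, had 989 (42.3 CPM) and 1068 (26.0 CPM). Hdac9, Atxn1, Rora, Camta1 and Smyd3 had between 128 and 555 counts in replicate 1, and Nfib had 14 and 55 counts. Past 2-fold, 3 of the 11 were lower in replicate 2 (Zfhx3, Maml3 and Atxn1) and 1, Nfib, was higher, beside 26.0% and 5.76% of all counted genes. After adjustment for transcript GC content and length 0 were lower and 5 higher, beside 12.7% and 9.84%. Hivep3, a zinc finger factor outside the list, had 2635 counts (113 CPM) and 2498 counts (60.7 CPM).

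RNA-binding proteins had 3 long members, which gave 268 CPM in replicate 1 and 287 CPM in replicate 2, nearly all of it Celf2. Rbfox1, a splicing factor known from neurons and muscle (chr16:5885355-7411526), had 65 counts (2.78 CPM) and 218 counts (5.30 CPM), a log2 ratio of 0.93 that passed 2-fold with DESeq2 size factors (1.21). Rbfox3, which encodes the neuronal nuclear antigen NeuN and is among the neuronal markers above, had 10 counts and 18 counts, 0.428 and 0.438 CPM.

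Signalling enzymes made up 13 members and gave 426 CPM in replicate 1 and 230 CPM in replicate 2. Camk1d, a calcium/calmodulin-dependent kinase (chr2:5293457-5714515), had 3302 counts (141 CPM) and 1365 counts (33.2 CPM), a level 4.26-fold lower in replicate 2. Pde4b, a cAMP phosphodiesterase of immune cells (chr4:102087543-102607259), had 1606 counts (68.7 CPM) and 3177 counts (77.2 CPM), and Inpp4b, a phosphoinositide phosphatase, had 1560 (66.7 CPM) and 2653 (64.5 CPM). Both differed by under 1.15-fold. The receptor phosphatase gene Ptprm had 1508 and 832 counts, the protein kinase C gene Prkca had 876 and 436, and Cdk14 had 432 and 225, all over 2-fold lower as CPM in replicate 2. Pde4d (chr13:108449948-109953461) had 46 counts (1.97 CPM) and 275 counts (6.68 CPM) and was 3.40-fold higher. In all, 6 of the 13 were over 2-fold lower and 1 was over 2-fold higher, beside 26.0% and 5.76% of all counted genes. After adjustment for transcript GC content and length 3 were lower and 3 higher, beside 12.7% and 9.84%.

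The scaffolds of polarity, junctions and membrane skeleton summed to 889 CPM in replicate 1 and 333 CPM in replicate 2. Frmd4a had 8728 counts (373 CPM) and 6688 counts (163 CPM), and Nav2 had 2541 (109 CPM) and 1885 (45.8 CPM). Dst, a linker of the cytoskeleton, had 1584 (67.7 CPM) and 1254 (30.5 CPM), and Lpp, a focal adhesion protein, had 1302 (55.7 CPM) and 611 (14.9 CPM). Past 2-fold, 8 of 10 members were lower in replicate 2, where 26.0% of counted genes were, and 0 were higher. With DESeq2 size factors 4 were lower, a scaling for which no share of all counted genes was computed. After adjustment for transcript GC content and length 2 were, beside 12.7% of counted genes. The other two, Pard3b (207 and 257 counts) and the dystrophin relative Utrn (164 and 245), were 1.42-fold and 1.18-fold lower as CPM.

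Vesicle traffic and endosome genes gave 602 CPM in replicate 1 and 313 CPM in replicate 2 over 13 members, of 15 listed genes of that span. Tbc1d5, a GTPase-activating protein for Rab7 that works with retromer (chr17:50733124-51179352), had 2647 counts (113 CPM) and 1968 counts (47.8 CPM). The exocyst subunit genes Exoc4 and Exoc6b had 2035 and 1520 counts (87.0 and 36.9 CPM) and 1141 and 500 counts (48.8 and 12.2 CPM). Dennd1a, an exchange factor for Rab35, had 941 and 354 counts (40.2 and 8.60 CPM). These were all over 2-fold lower in replicate 2, as were Trappc9, Vps13b and Nbea, 7 of 13 in all, where 26.0% of counted genes were. With DESeq2 size factors 5 were, with no share of all counted genes computed for that scaling. After adjustment for transcript GC content and length 1 was, beside 12.7% of counted genes. Among those within 2-fold were Lrba, Snx29, Bcas3, Lrmda and Rabgap1l, and 0 genes of the list were over 2-fold higher.

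**Figure D2:**
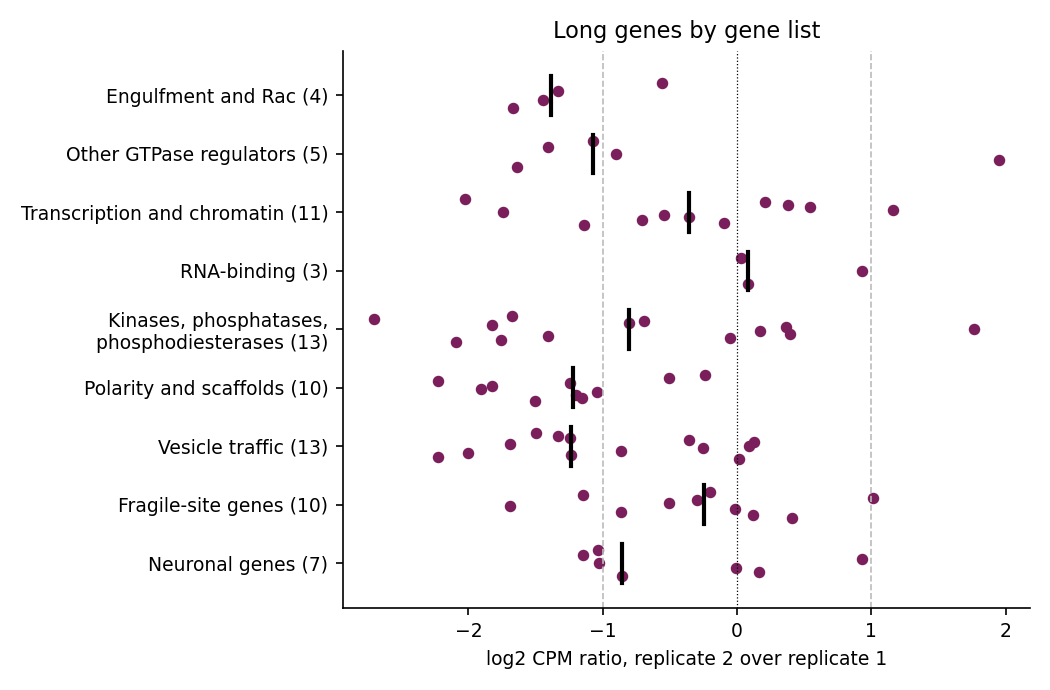
log2 CPM ratio of replicate 2 over replicate 1 for the long genes of each gene list (points, 1 per gene), with the list's median as a black bar and dashed lines at a 2-fold difference in either direction. The medians of the scaffold (-1.22), vesicle traffic (-1.24) and engulfment (-1.39) genes lie past the 2-fold line with CPM, the first 2 of them within it with DESeq2 size factors, and that of the RNA-binding genes lies at 0.08.

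Large genes at common fragile sites were present at low levels. They had 10 members of 20 listed genes of that span and gave 86.7 CPM in replicate 1 and 64.6 CPM in replicate 2. Fhit, a nucleotide hydrolase (chr14:9550092-11162035), had 189 counts (8.08 CPM) and 442 counts (10.7 CPM), and Wwox, a WW-domain oxidoreductase, had 270 (11.5 CPM) and 414 (10.1 CPM). Immp2l, a mitochondrial inner membrane peptidase, had 170 (7.27 CPM) and 324 (7.88 CPM). These 3 genes were within 1.4-fold between the libraries. Macrod2, an ADP-ribose hydrolase with the longest span of all members at 1998 kb (chr2:140395309-142392966), had 19 and 33 counts, 0.813 and 0.802 CPM. Over the 10 members 2 were over 2-fold lower (Nbea and Sdk1) and 1 was higher (Rad51b, with 27 and 96 counts), beside 26.0% and 5.76% of all counted genes.

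Most long neuronal genes of the list were not counted. Of 91 listed neuronal adhesion, synapse and channel genes of that span, 7 were members and 84 were not counted, while 31.3% of all 361 long genes were members. Of these 84 genes 28 had a count of 0 in both libraries, and the highest had 38 counts in the libraries together. Csmd3, a large complement-control membrane protein (chr15:47580637-48792063), had the highest level per kb of the 7 (3.60 CPM per kb), with 1035 counts (44.3 CPM) and 2039 counts (49.6 CPM). Sema6d, a semaphorin, had 366 and 314 counts, the calcium channel gene Cacna1d 201 and 195, the potassium channel gene Kcnma1 175 and 151, and the adhesion gene Sdk1 162 and 129. Dlgap1, a postsynaptic scaffold, had 12 and 21 counts. Neuronal markers stood at 4.23 and 6.44 CPM in sum, and their part in these counts was not tested.

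Among members in none of these lists, 7 transporter and channel genes gave 450 CPM in replicate 1 and 395 CPM in replicate 2, led by Slc9a9. Atp8a2, a phospholipid flippase, had 2872 counts (123 CPM) and 2956 counts (71.8 CPM), but 15.6% of its exon bases overlap another gene. Slc39a11 had 1533 (65.6 CPM) and 2739 (66.6 CPM), and Slc7a11, the cystine/glutamate exchanger, had 146 (6.24 CPM) and 433 (10.5 CPM). Plxna4, a semaphorin receptor (chr6:32144268-32588192), had 2555 counts (109 CPM) and 1152 counts (28.0 CPM) and led 5 guidance and adhesion genes, 4 of which were over 2-fold lower in replicate 2. Enzymes of metabolism, tRNA and protein turnover (7 genes, among them March1) gave 192 and 231 CPM, with 0 over 2-fold lower and 1, Sugct, higher. Genes of the cilium, centrosome and nuclear envelope (5 genes) gave 94.9 and 92.8 CPM, with Ttc28 over 2-fold lower and Syne1 higher. Gene regulators outside the list (7 genes, led by Snd1 and Hivep3) gave 397 and 193 CPM, with 3 lower and 0 higher. These groups were formed after the members were known. The 42 members outside the lists had a median log2 ratio of -0.15, with 9 over 2-fold lower and 4 higher. The 71 inside them had -0.86, with 33 lower and 4 higher. Of all counted genes 26.0% were over 2-fold lower and 5.76% higher, which also stand beside the counts of each group above. Of the 113 members, 2 were noncoding by annotation, Mir99ahg (627 and 765 counts) and Snhg14 (16 and 36 counts), which are named here after their values were seen.

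Over all 113 long genes the library ratio leaned towards replicate 1. The median log2 ratio of CPM in replicate 2 over replicate 1 was -0.47 (quartiles -1.41 and 0.09, range -2.70 to 2.25), beside -0.27 over the 13028 counted genes (quartiles -1.04 and 0.27), so the members lay 0.20 below that median. There were 77 members below 0 and 36 above it. Relative to the median of counted genes 64 were below and 49 above. Past 2-fold, 42 members were lower in replicate 2 (37.2%), where 26.0% of the counted genes were, and 8 were higher (7.08%), where 5.76% were. With DESeq2 size factors, which moved every log2 ratio up by 0.27, the split was 31 lower and 11 higher. With TMM factors, which moved it up by 0.23, it was 34 and 10. The shares of 26.0% and 5.76% hold for CPM, and none was computed over all counted genes for these 2 scalings. The biological coefficient of variation between the libraries (edgeR common dispersion) was 0.484 over the long genes and 0.480 over all counted genes. With TMM or DESeq2 scaling, a log2 ratio between -0.23 and 0 turned positive, and the median of the fragile-site list, -0.25, did so with DESeq2 size factors.

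The mature transcripts of the long genes were long as well. Their median spliced length was 6586 bases against 3105.5 for counted genes, 104 of 113 were longer than that median, and 57 fell in the longest of 10 equal bins of counted transcripts, which starts at 6445 bases. They had a median of 17 exons against 6, and their exons covered a median of 1.96% of the span. The GC content was slightly lower, 47.1% against 49.3%. Lengths and GC content were read from the longest M21 transcript of each gene. For Dennd1a this transcript has 2 exons and 6212 bases, so its features are not those of the usual mRNA.

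Within the long genes the ratio moved with both features. The 23 members with transcripts under 4 kb had a median log2 ratio of 0.02, with 2 over 2-fold lower and 2 over 2-fold higher in replicate 2. The 51 members of 4 to 8 kb had a median of -0.54 (20 lower, 2 higher), and the 39 of 8 kb or more had -1.03 (20 lower, 4 higher). Over all counted genes of the 3 length classes 16.1%, 44.5% and 53.1% were over 2-fold lower and 7.22%, 2.91% and 2.61% higher. All counted genes in these length classes had medians of -0.03, -0.87 and -1.07, so that short-transcript and very long-transcript members lay near other genes of their length, and the middle class lay above. By GC content, the 47 members under 46% had a median of 0.06 (6 lower, 6 higher) and the 66 members of 46% or more had -1.14 (36 lower, 2 higher). Over all counted genes the medians of these GC classes were -0.13 and -0.34, with 19.5% and 29.0% over 2-fold lower and 5.93% and 5.69% higher. As a description across genes, which are not independent replicates and share 2 libraries, Spearman's rho of the ratio with transcript length was -0.29 over the 113 members and -0.38 over the counted genes, and with GC content -0.38 and -0.14.

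**Figure D3:**
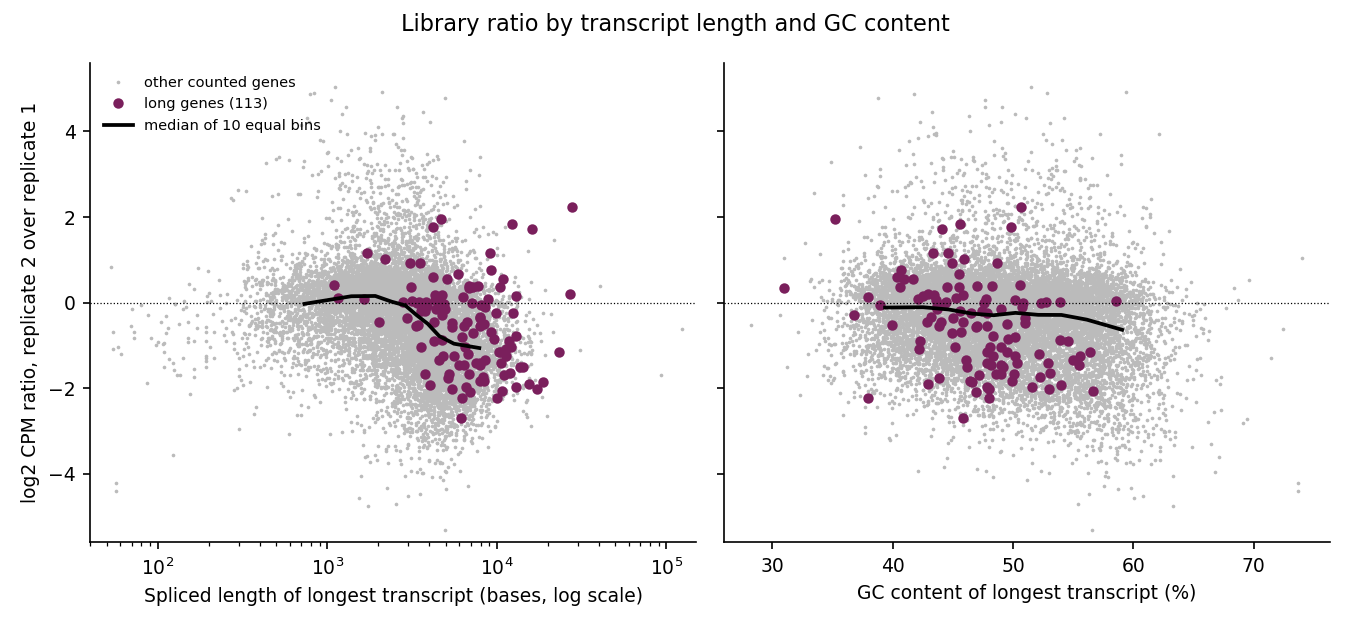
log2 CPM ratio of replicate 2 over replicate 1 against the spliced length (left, log axis) and the GC content (right) of the longest transcript, with the 113 long genes as large points, the other counted genes as small points and the black line through the medians of 10 equal bins of the counted genes. The line starts at -0.03 in the bin of shortest transcripts, reaches 0.16 at 1664 to 2145 bases and falls to -1.06 in the bin of longest transcripts, where 57 of the long genes lie.

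The ratio was then set against genes of like transcripts, by subtracting the median log2 ratio of counted genes in the same of 10 bins of GC content and the same of 10 bins of length. After this the members' median was 0.25 (quartiles -0.37 and 0.79) where the counted genes had 0, with 46 members below 0 and 67 above. Over 2-fold lower were 8 members (7.08%) beside 12.7% of 13022 genes with an annotated transcript, and over 2-fold higher were 20 (17.7%) beside 9.84%. Of the 42 members that were over 2-fold lower before, 34 were no longer past that fold and 8 still were. These 8 were Ptprk, Dennd1a, Snd1, Slc24a3, Nav3, Lpp, Cdk14 and Camk1d, with adjusted log2 ratios from -1.77 to -1.01. With the longest protein-coding transcript of every gene in place of the longest of any kind, Dennd1a had -0.56 and Slc24a3 -0.53. Both were then within 2-fold, and 6 of the 8 were past it. For Slc24a3 the 2 choices are the same transcript (4048 bases, GC content 54.0%). Its value thus moved with the bins it was compared with, and not with its own transcript. Among the lists, the adjusted medians were -0.35 for the engulfment genes, -0.17 for the scaffolds and -0.17 for vesicle traffic, and 0.93 for RNA-binding proteins and 0.43 for gene regulators. For Elmo1 the log2 ratio went from -0.56 to 0.37, for Dock2 from -1.44 to -0.44, and for Zfhx3 from -2.03 to -0.71.

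The span itself showed another pattern than transcript length. The median log2 ratio was -0.10 for 7501 genes under 25 kb, -0.34 for 25 to 50 kb and -0.67 for 50 to 100 kb. It was -0.79 for 100 to 200 kb, -0.77 for 200 to 400 kb and -0.70 for the 92 members of 400 to 800 kb. The 21 members of 800 kb or more stood at -0.01, with 3 over 2-fold lower and 3 higher, beside 26.0% and 5.76% of all counted genes. After the adjustment, the bins under 400 kb lay between -0.09 and 0.02, the 400 to 800 kb bin at 0.13 and the bin of 800 kb or more at 0.55. Restricting the last to the 16 genes that had 50 counts or more in each library gave a median of -0.15 before and 0.47 after adjustment. Before adjustment 3 of these 16 were over 2-fold lower and 0 higher, with no share of all counted genes computed at that minimum. The 3 higher genes that it left out, Pde4d, Trpm3 and Sugct, had 46, 10 and 14 counts in replicate 1. The median GC content of all 21 was 45.6% and their median transcript length 5944 bases, beside 47.4% and 6643.5 bases for 400 to 800 kb. This group of 21 includes Celf2, March1 and Csmd3, which were level or higher in replicate 2, and Zfhx3, which was not.

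**Figure D4:**
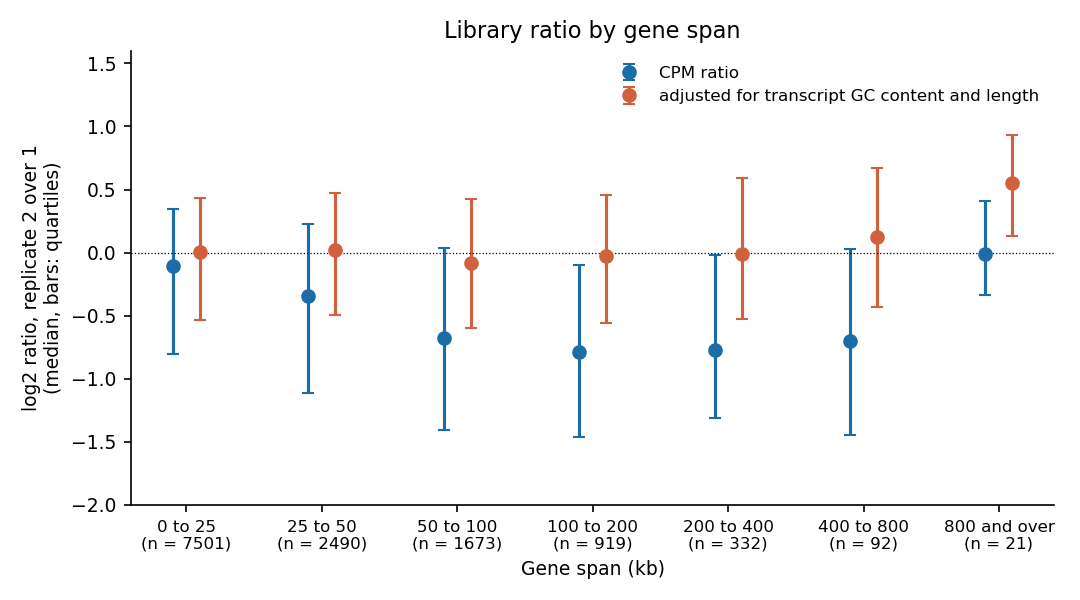
Median log2 CPM ratio of replicate 2 over replicate 1 for counted genes by bin of gene span, before (blue) and after (orange) adjustment for transcript GC content and length, with bars from the lower to the upper quartile of each bin. Before adjustment the median falls to -0.79 at 100 to 200 kb and returns to -0.01 at 800 kb and over, and after it the bins under 400 kb lie near 0 and the last at 0.55.

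Level moved with the ratio too. The 8 members with a mean of at least 100 CPM had a median log2 ratio of -1.32, the 58 of 10 to 100 CPM -0.74, and the 47 under 10 CPM -0.14. Counted genes of these levels had medians of 0.002, -0.26 and -0.41, the opposite order. Of the 8 members at 100 CPM or more, 5 were over 2-fold lower in replicate 2, where 16.0% of the 1669 counted genes at that level were. After adjustment for transcript GC content and length, the medians of the 8, 58 and 47 members were -0.16, 0.09 and 0.55. No adjusted medians by level were computed over all counted genes.

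The members with the largest differences, among those with a mean of at least 100 counts, are a description of 2 libraries. Lowest in replicate 2 were Dennd1a and Nav3 (log2 ratio -2.23 for both), Camk1d (-2.09), Ttc28 (-2.07), Zfhx3 (-2.03), Exoc6b (-2.01), Plxna4 (-1.96) and Slc24a3 (-1.93). Ttc28, a tetratricopeptide protein of the spindle and midbody, had 1334 and 559 counts, and the sodium/calcium exchanger gene Slc24a3 had 323 and 149. Highest was Syne1, which encodes the nuclear envelope protein nesprin-1 (chr10:5020917-5551482), with 98 counts (4.19 CPM) in replicate 1 and 818 counts (19.9 CPM) in replicate 2, a log2 ratio of 2.25 (95% Clopper-Pearson interval 1.94 to 2.56). Its transcript is the longest of all members at 27908 bases, so it went against the trend with length, and its adjusted log2 ratio was 3.51. Arhgap15 followed at 1.95 (1.73 to 2.17), Pde4d at 1.76 (1.31 to 2.25) and the lipid transporter gene Abca13 (35 and 202 counts) at 1.71 (1.19 to 2.27). Bbs9, a BBSome subunit gene, had 0.93, Rbfox1 0.93, Slc7a11 0.75 and Klf12 0.68. In replicate 2 neutrophil markers stood at 60915 CPM and basophil markers at 165 CPM, against 4461 and 0.0855 CPM in replicate 1, and their part in these higher levels was not tested.

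The genes at the limits of the rule were these. Just inside the span of 400 kb were Dst (400437 bases), Dock4 (400923) and Hivep3 (404262). Just outside were Plxdc2 (399536 bases; 17289 and 29808 counts, or 739 and 725 CPM), Adk (395996 bases; 424 and 894 counts) and the estrogen receptor gene Esr1 (394022 bases; 798 and 417 counts). At the count minimum, Trpm3 (10 and 63 counts), Rbfox3 (10 and 18) and Ptprg (11 and 12) were inside, and Kcnip4 (9 and 9) and Nrg1 (9 and 29) were outside.

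The 248 long genes that were not members comprised 104 with a count of 0 in both libraries and 111 that had fewer than 10 in both but not 0 in both. A further 7 reached 10 counts in replicate 1 only and 26 in replicate 2 only, and replicate 2 was the deeper library. Those that reached it in replicate 2 only included Diaph3, a formin of cytokinesis, with 5 and 48 counts, Spag16 with 2 and 34, and Nrxn3, a neurexin, with 2 and 22. Those in replicate 1 only included Etl4 with 20 and 1 counts and the receptor phosphatase gene Ptprd with 15 and 8. These 5 genes were chosen after their values were seen.

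The deposited span was checked against GENCODE M21. For Chd1, a chromatin remodeller with 1160 and 1618 counts, the deposited span was 1689.9 kb (chr17:15704967-17394898) and that of M21 was 67.6 kb, with 7 other genes inside the deposited one. For Arhgap26 it was 775 kb against 383 kb. These 2 members would not have been long genes by M21, and for the other 111 the M21 span was also at least 400 kb. Exons shared with another gene covered over 10% of the exon bases in 3 members, Atp8a2 (15.6%), Fars2 (10.7%) and Gm20696 (16.5%), and whether the counting used strand is not given in the sources used here, so their counts may include reads of a neighbour.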

How the data were processed

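RNA-seq libraries of 2 sham mice, 1 mouse each, were analysed. cDNA was made with the SMART-Seq HT Kit and tagmented with Nextera XT, and 75-bp read pairs were sequenced. The authors mapped reads to GRCm38 with HISAT2 and used HTSeq for counting by Ensembl identifier, so the values as deposited are raw whole-number counts per gene. Versions, annotation release and strand setting are not given in the sources used here. The deposited start counts from 0, and 1 was added for the coordinates given.

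CPM was the count divided by the library total, times 1000000. Ratios have 95% Clopper-Pearson intervals for counting error only, and no p-value was computed, since the libraries are replicates of 1 group. edgeR 4.0.16 gave TMM factors and the common dispersion with an intercept only, DESeq2 1.42.0 gave size factors (R 4.3.3, Python 3.11.15, numpy 2.4.6, pandas 2.3.3, scipy 1.17.1, matplotlib 3.10.9). Spliced length and GC content came from the longest transcript in GENCODE M21 (GRCm38), whose coordinates equal the deposited ones for 96.9% of genes. The adjustment used 10 bins each of GC content and length, with the bin of GC content used by itself under 20 genes in common, and was tested on simulated data, as was the dispersion. Symbols matched for 53620 of 53801 identifiers.

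The members and gene lists were chosen with earlier results of these data known. Named were the 15 members of highest mean CPM, the 10 of highest CPM per kb, the 8 largest and 8 smallest ratios at a mean of at least 100 counts, the 5 longest, those at the limits of the rule (3 on each side of the span), the list members and the shorter engulfment genes. Some genes that this rule covers are not reported here. Groups outside the lists were assigned after the members were known. Alternatives were other scalings, count minimums of 1 and 50, spans of 200 and 800 kb, chromosome X, the adjustment and each library alone. Further alternatives were added after seeing the data: coding transcripts, M21 spans, ratios relative to the median, leaving out overlapping genes, and other scalings for the gene lists.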

Additional observations from a re-analysis of the deposited data

Results flagged for a closer look

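Chromosome X was left out of the comparison, and 4 long genes on it were counted in both libraries, above the 3 counts that a count of 0 allows. Diaph2, a formin that organises actin (716 kb), had 2039 counts (87.2 CPM) in replicate 1 and 909 counts (22.1 CPM) in replicate 2, a log2 ratio of -1.98. Fgf13, an intracellular fibroblast growth factor homologue (506 kb), had 324 (13.9 CPM) and 582 (14.1 CPM), a log2 ratio of 0.03. Frmpd4 had 21 and 31 counts, and Arhgap6 had 17 and 27. The levels of Diaph2 were below those of the 15 highest members, which began at 109 CPM in replicate 1 and 60.7 CPM in replicate 2. In all, 16 genes on this chromosome spanned at least 400 kb.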

How the results depend on the processing

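The median log2 ratio of the long genes, -0.47 as reported, was -0.24 with TMM factors, -0.20 with DESeq2 size factors and -0.20 relative to the median of counted genes. It was -0.70 at a count minimum of 50, -0.71 at a span of at least 200 kb and -0.0079 at 800 kb. It reversed to 0.25 after the adjustment for GC content and length of the longest transcript and to 0.19 with the longest protein-coding transcript, and the cause was not tested. The adjustment gave 8 genes over 2-fold lower and 20 higher, or 6 and 22 with coding transcripts, where 42 and 8 were reported. With the longest transcript 12.7% of counted genes were lower and 9.84% higher, and no shares were computed with coding transcripts. A count minimum of 1 gave 196 genes with 64 lower and 29 higher, and a minimum of 50 left 2 higher. No shares of all counted genes were computed at these minimums. A span of 200 kb gave 445 genes, 181 lower and 21 higher, and 800 kb gave 21 genes, 3 lower and 3 higher. Beside both stand 26.0% lower and 5.76% higher over all counted genes. The median kept its sign without mitochondrially encoded genes, at a minimum of 1, with M21 spans and without overlapping genes. Of 88 named members, the adjustment turned the sign of 5 that had been over 2-fold lower, Frmd4a (0.11), Nav2 (0.45), Trappc9 (0.14), Dst (0.11) and Sdk1 (0.55). By single library, the number counted ranged from 120 to 139 and the share of counts from 0.329% to 0.541%. Low counts limit the ratio most, as for Trpm3 (log2 ratio 1.84, interval 0.87 to 2.97). No paired analysis was possible because there is 1 group, with no second group to pair.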
